A study of Mus musculus with 11 samples.

Results

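The 7 genes Tyrobp, Fcer1g, Ly86, Siglech, Itgax, Cst3 and Lyz2 are transcripts known for myeloid and dendritic cells, and they were followed here through arrays of sorted CD4 T cells. They were chosen by name as 7 of the 18193 genes on the array, with earlier results of these arrays in view. The comparison with the naive cells below is therefore a description of these genes and carries no test. Each of the 7 had 1 probe set, so the rule of taking the brightest probe set of a gene left no choice to make.

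The 11 arrays, 1 per sample, were hybridised with RNA of CD4 T cells that had been sorted out of spleen and lymph node, from mice aged 6 to 8 weeks. GFPKO (n = 3) were GFP-positive CD4 T cells of Foxp3GFPKO/WT mice, which carry a null allele of Foxp3 marked by GFP beside a wild-type allele, so the wild-type allele can still give rise to regulatory T cells in the same animals. Treg (n = 5) were CD4 T cells labelled Foxp3-positive, and TN (n = 3) were naive CD4 T cells labelled Foxp3-negative. No treatment is named. All samples shared the positive selection for CD4 and a double sort on GFP, and the labels give no genotype for the mice behind Treg and TN. Nor do they say whether replicates were different animals, so the p-values reflect sample-to-sample spread that may be only technical.

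The series is about Foxp3, the transcription factor of regulatory T cells, and its probe set was read as a check of the labels. It gave 6.93 ± 0.23 on the log2 scale in GFPKO, 3.47 ± 0.16 in Treg and 3.48 ± 0.45 in TN (SD, n = 3, 5 and 3). The Treg arrays were thus as low as the TN arrays, against their label, and "Treg" below means the arrays so labelled. Where this probe set lies relative to the altered parts of the Foxp3 alleles is not given in the sources used here, which limits what it can check. Xist, the RNA of the inactive X chromosome, was at 11.34 ± 0.44 in GFPKO, 3.67 ± 0.21 in Treg and 3.78 ± 0.06 in TN, and sex and genotype cannot be told apart in any comparison with GFPKO. Of the defining T cell genes, Cd3e, a chain of the T cell receptor complex, read between 10.60 and 11.09 on all arrays, and Cd4 between 7.34 and 8.37. For beta-actin, the log2 signal of the 3′ control probe set less that of the 5′ one, a gap that widens as RNA degrades, was 0.451 to 0.832 in GFPKO, 0.442 to 0.611 in Treg and 0.381 to 0.526 in TN. The number of arrays limits the precision of every value below.

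Tyrobp (DAP12) and Fcer1g (the common Fc receptor gamma chain) are small adaptors that carry an immunoreceptor tyrosine-based activation motif (ITAM). Receptors of myeloid and natural killer (NK) cells that cannot signal alone pair with them, and the kinase Syk or its relative Zap70 docks on the motif. Ly86 (MD-1) is the secreted partner of the receptor Cd180 (RP105), a relative of Toll-like receptor 4. Siglech is a sialic acid-binding lectin of mouse plasmacytoid dendritic cells that signals through Tyrobp. Itgax is the integrin chain CD11c, the usual marker of dendritic cells. Cst3 is cystatin C, a secreted inhibitor of lysosomal cysteine proteases that many cell types make and dendritic cells make in large amounts. Lyz2 is lysozyme M, an enzyme of macrophages and granulocytes that cleaves bacterial cell walls. In the mouse, some dendritic cells, plasmacytoid ones among them, also carry CD4 on their surface.

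Tyrobp, Fcer1g, Ly86, Siglech and Itgax read together across the arrays (below), so the 250 bases before a transcript start of 4 of them are shown. They come from RefSeq on build GRCm38.p6, which held such a stretch for 6 of the 7 genes, and each is written 5′ to 3′ on the gene's own strand. Fcer1g lies on the minus strand at chr1:171229572-171234349 and its stretch at chr1:171234350-171234599. Ly86 lies on the plus strand at chr13:37345345-37419036, with its stretch at chr13:37345095-37345344. Siglech (chr7:55768154-55779448) and Itgax (chr7:128129526-128150657) are on the plus strand, with stretches at chr7:55767934-55768183 and chr7:128129300-128129549. The transcript starts that end these last stretches lie 30 bases inside the printed bounds of Siglech and 24 bases inside those of Itgax. Capitals mark matches to GGAAGT, a purine-rich core that ETS family factors can bind, or to its reverse complement ACTTCC.
Fcer1g: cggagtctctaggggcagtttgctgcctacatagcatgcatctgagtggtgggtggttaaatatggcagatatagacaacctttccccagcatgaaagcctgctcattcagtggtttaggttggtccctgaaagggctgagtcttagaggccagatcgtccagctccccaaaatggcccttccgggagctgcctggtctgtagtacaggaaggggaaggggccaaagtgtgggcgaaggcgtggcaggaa
Ly86: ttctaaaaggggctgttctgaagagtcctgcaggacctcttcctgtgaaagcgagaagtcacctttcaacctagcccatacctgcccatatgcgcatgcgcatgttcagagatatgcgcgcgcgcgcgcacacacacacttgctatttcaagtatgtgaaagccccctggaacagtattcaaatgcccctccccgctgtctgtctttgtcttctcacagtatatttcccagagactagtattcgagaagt
Siglech: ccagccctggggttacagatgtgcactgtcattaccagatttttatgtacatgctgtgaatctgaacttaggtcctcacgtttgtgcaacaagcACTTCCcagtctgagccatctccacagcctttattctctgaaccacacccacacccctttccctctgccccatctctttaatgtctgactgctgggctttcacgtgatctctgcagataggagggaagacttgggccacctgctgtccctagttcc
Itgax: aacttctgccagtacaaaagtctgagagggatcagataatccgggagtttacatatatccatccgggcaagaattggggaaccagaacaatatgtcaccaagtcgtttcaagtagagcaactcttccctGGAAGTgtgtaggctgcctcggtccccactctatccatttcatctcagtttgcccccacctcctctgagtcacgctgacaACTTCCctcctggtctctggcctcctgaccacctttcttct
A GGAAGT match was found on either strand in 3 of the 6 stretches, against 19.7% of the 32851 promoter stretches of the same length. Counted from the transcript start that ends the stretch, it lay 156 bases before that of Siglech, 121 and 41 bases before that of Itgax, and 100 bases before that of Lyz2. GAGGAA (reverse complement TTCCTC), the PU box of the myeloid factor PU.1, occurred in 1 of the 6, at 230 bases before the transcript start of Cst3, against 23.3% of all stretches. Both motifs were picked after the values were seen, and a match is only a match of letters. Tyrobp is at chr7:30413782-30417582, Cst3 at chr2:148871722-148875512 and Lyz2 at chr10:117277541-117282272.

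The values are log2 signals as the authors deposited them. To tell a weak signal from none, the 90th percentile of the mean signals of 22 genes restricted to other organs was taken as the background level, at 5.34. Those 22 genes spanned 2.11 to 5.63 with a median of 3.83. By this level 5 of the 7 genes were above background in at least one group, which left out Siglech and Itgax. Levels of different genes are not compared, since probe sets differ in brightness.

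The adaptor Tyrobp had the widest gap between groups of the 7. It read 4.04, 4.70 and 4.99 on the GFPKO arrays, 4.32, 4.60, 4.12, 4.68 and 5.08 on the Treg arrays, and 8.13, 7.95 and 7.52 on the TN arrays (replicates in order of number). The group means were 4.58 ± 0.48 in GFPKO, 4.56 ± 0.37 in Treg and 7.87 ± 0.31 in TN (SD, n = 3, 5 and 3). All GFPKO and Treg arrays were below the background level and all TN arrays well above it, with no overlap. The log2 difference was -3.29 ± 0.26 in GFPKO and -3.31 ± 0.23 in Treg relative to TN (SE), the 9th and 14th lowest of all genes. Because the low groups lie below background, the signal was at least 5.76-fold lower in each of them, taken against the background level. In these bulk samples, fewer cells of a type and less RNA per cell cannot be told apart.

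Fcer1g, the other adaptor, differed in the same direction by less. It read 5.00, 4.65 and 4.81 in GFPKO, 4.95, 5.23, 5.52, 4.95 and 5.42 in Treg, and 6.91, 6.27 and 6.16 in TN. Every TN array was again above every other array, though Treg replicates 3 and 5 came just over the background level. The log2 difference was -1.63 ± 0.21 in GFPKO and -1.23 ± 0.18 in Treg relative to TN. The TN mean was 2.15-fold above the background level, and the GFPKO and Treg means lay below that level.

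Ly86, the partner of Cd180, read 3.48, 3.31 and 3.58 in GFPKO, 3.77, 3.93, 3.63, 3.70 and 3.85 in Treg, and 6.35, 5.62 and 5.06 in TN. The groups did not overlap, but TN itself was spread over more than 1 log2 unit and its replicate 3 lay below the background level. The mean was 3.46 ± 0.13 in GFPKO, 3.78 ± 0.12 in Treg and 5.68 ± 0.65 in TN, giving log2 differences of -2.22 ± 0.23 and -1.90 ± 0.21 and a signal at least 1.26-fold lower in both.

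The surface markers of dendritic cells were near or below background on all arrays. Siglech read 3.69, 3.53 and 3.88 in GFPKO, 3.56, 4.14, 4.0, 3.88 and 3.90 in Treg, and 5.62, 5.25 and 4.86 in TN. Only TN replicate 1 exceeded the background level, and with the TN mean of 5.24 ± 0.38 just under it no fold is given. The log2 difference was -1.54 ± 0.19 in GFPKO and -1.35 ± 0.17 in Treg relative to TN. Itgax read 3.29, 3.22 and 3.33 in GFPKO, 3.32, 3.88, 3.49, 3.81 and 3.71 in Treg, and 4.82, 4.55 and 4.15 in TN. All of its arrays were below background, yet each TN array was above each of the others (log2 differences -1.23 ± 0.18 and -0.87 ± 0.16).

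**Figure D1:**
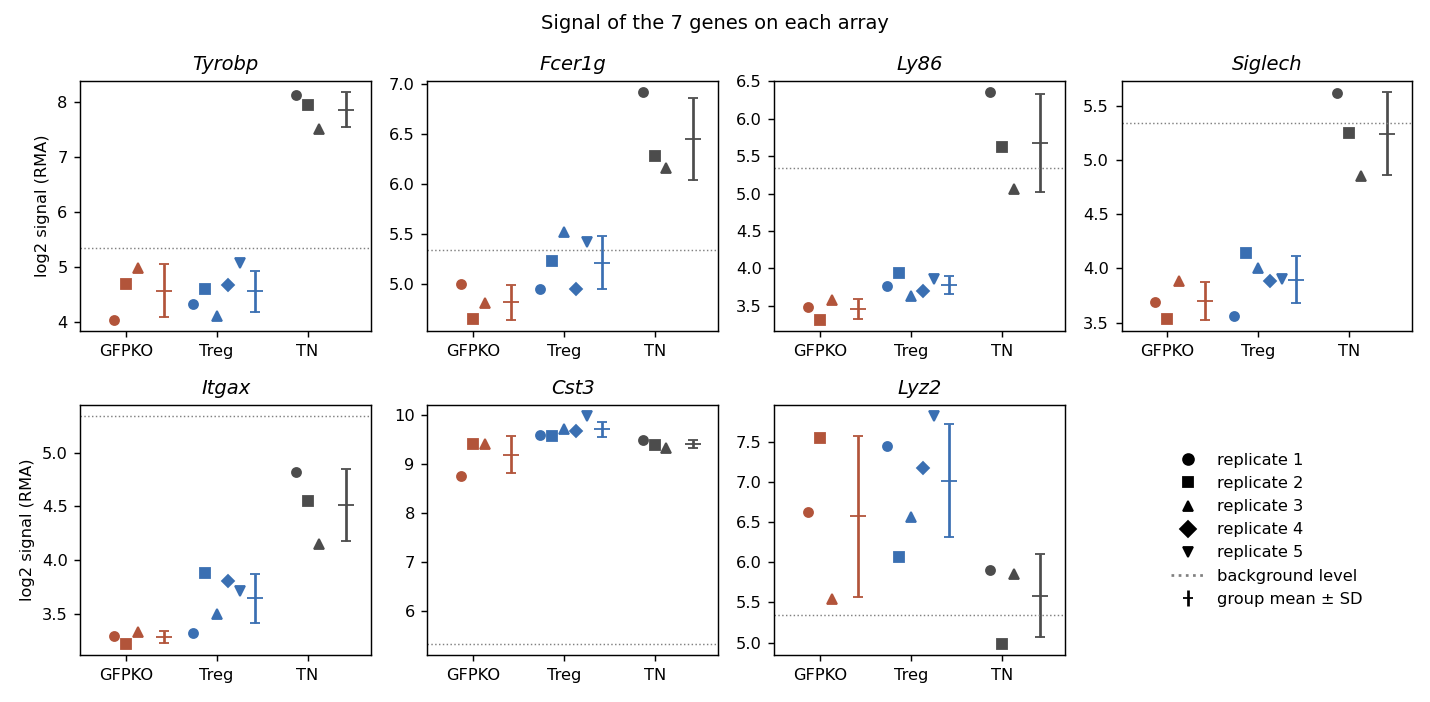
Log2 signal (RMA, vertical axes, each panel on its own scale) of the 7 genes on each GFPKO, Treg and TN array, with the mean ± SD beside each group and the background level of 5.34 as a dotted line. Each TN array of Tyrobp, Fcer1g, Ly86, Siglech and Itgax lies above all GFPKO and Treg arrays, whereas Cst3 and Lyz2 do not have this pattern.

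The protease inhibitor Cst3 was far above background on all arrays. It read 8.75, 9.41 and 9.40 in GFPKO, 9.58, 9.58, 9.71, 9.67 and 9.98 in Treg, and 9.49, 9.38 and 9.33 in TN. GFPKO and TN overlapped (log2 difference -0.21 ± 0.17), and every Treg array was above every TN array by a small margin (0.30 ± 0.16).

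Lysozyme Lyz2 was instead lowest in TN by its mean, and its arrays varied widely within GFPKO and Treg. It read 6.63, 7.55 and 5.55 in GFPKO, 7.45, 6.07, 6.57, 7.18 and 7.82 in Treg, and 5.91, 4.99 and 5.86 in TN. Every Treg array was above every TN array (log2 difference 1.43 ± 0.42), while GFPKO replicate 3 lay among the TN arrays (GFPKO minus TN 0.99 ± 0.47). The GFPKO arrays alone spanned 2 log2 units, and leaving out GFPKO replicate 2 or replicate 3 moved the difference from TN to 0.50 or 1.50.

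Past an adjusted p of 0.05 in the fit of all genes (limma, Benjamini-Hochberg over 18193 genes), 5 of the 7 genes were lower for GFPKO minus TN, where 3.02% of all genes were, and none was higher (2.64%). For Treg minus TN the count was 5 lower (3.42%) and 1 higher, Lyz2 (6.54%). Each TN array was above each GFPKO and Treg array for 5 of the 7, where 3.5% of all genes had this. The same 5, namely Tyrobp, Fcer1g, Ly86, Siglech and Itgax, were lower in both, as were 1.52% of all genes. The 7 genes were picked with both comparisons known, the comparisons share the TN arrays, and nothing is read from the counts.

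The difference between GFPKO and Treg does not use the TN means and was tested. The 7 genes were chosen with earlier results of these arrays in view, so these tests are not independent of that choice. None of the 7 was called lower (6.88% of all genes) or higher (2.55%) by limma at an adjusted p under 0.05. At an unadjusted p under 0.05 were 3 (Fcer1g, Itgax and Cst3), all lower in GFPKO. The share of all genes at that unadjusted threshold was not counted and must exceed the shares just given. Nothing is therefore read from the count of 3. Cst3 came closest, with a log2 difference of -0.51 ± 0.16 (SE, adjusted p = 0.052). Every GFPKO array of Cst3 and of Ly86 was below every Treg array, an arrangement that 11.1% of all genes had. The log2 difference of Tyrobp was 0.02 ± 0.23 (adjusted p = 0.98), that of Fcer1g -0.40 ± 0.18 (adjusted p = 0.21), that of Ly86 -0.32 ± 0.21 (adjusted p = 0.40), that of Siglech -0.19 ± 0.17 (adjusted p = 0.55), that of Itgax -0.36 ± 0.16 (adjusted p = 0.19) and that of Lyz2 -0.44 ± 0.42 (adjusted p = 0.58). Missing the threshold does not show that the groups were alike. With limma's array weights, which give less weight to arrays that stand apart, Fcer1g (-0.57, adjusted p = 0.0052), Ly86 (-0.46, adjusted p = 0.035), Siglech (-0.42, adjusted p = 0.019), Itgax (-0.46, adjusted p = 0.0088) and Cst3 (-0.29, adjusted p = 0.033) were called lower in GFPKO. The same weights called 24.3% of all genes lower in GFPKO, so these calls are not read as particular to the 7 genes.

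Across the 11 arrays the signals of Tyrobp, Fcer1g, Ly86, Siglech and Itgax ran together, with pairwise Pearson correlations of 0.89 to 0.98. The correlation of Cst3 with these genes was -0.05 to 0.11 and that of Lyz2 was -0.70 to -0.55. These are descriptions over arrays that fall into groups, and the correlations mostly restate the gap between TN and the rest. Among 8939 genes above background, the closest to the mean of the 7 (each scaled to mean 0 and SD 1) were Pole4, a subunit of DNA polymerase epsilon (r = 0.969), 2510002D24Rik (0.954), the protease inhibitor Slpi (0.947), Ostf1 (0.947), Gm32633 (0.942), the sorting nexin Snx1 (0.938), the surface protein Ly6d (0.936), the respiratory chain subunit Uqcrfs1 (0.935), Ttc27 (0.931) and Hacd2 (0.930), over n = 11 arrays. This mean is of mixed patterns, since its correlation was 0.88 to 0.94 with the 5 genes that ran together, 0.31 with Cst3 and -0.37 with Lyz2. Of the genes closest to it, 2510002D24Rik, Snx1 and Uqcrfs1 were not called against TN in either comparison. Ly6d is also in the plasmacytoid list below. Slpi read 4.59, 5.48 and 4.80 in GFPKO, 5.07, 5.28, 5.27, 5.30 and 5.62 in Treg, and 6.76, 6.54 and 6.45 in TN.

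The TN arrays differed among themselves in a shared way. Replicate 1 was the highest and replicate 3 the lowest TN array for 6 of the 7 genes, all but Lyz2, where 25.6% of all genes had this arrangement. Of the 276 genes on the array called lower than TN in both comparisons, as 5 of these 6 were, 43.5% had it. The gap between those arrays was 1.30 log2 units for Ly86, 0.61 for Tyrobp, 0.76 for Fcer1g, 0.77 for Siglech, 0.67 for Itgax and 0.16 for Cst3. On the linear scale, the signal above the mean of the GFPKO and Treg arrays can be set against that on replicate 1. On replicate 3 this excess came to 62.4% of that on replicate 1 for Tyrobp, 43.0% for Fcer1g, 42.0% for Siglech, 37.3% for Itgax and 29.8% for Ly86. On replicate 2 it was 87.5% for Tyrobp, 71.2% for Itgax, 67.6% for Siglech, 52.8% for Ly86 and 50.1% for Fcer1g. All of these genes had less excess on both arrays than on replicate 1, though by unequal shares.

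The same measure was taken for the 28 other genes of the lists below that were called lower than TN in both comparisons, which share the TN arrays. Their excess on TN replicate 3 was 25.1% to 170% of that on replicate 1, with a median of 67.7%, and it was below that of replicate 1 for 23 of the 28. On replicate 2 it was 52.4% to 167%, with a median of 93.9%, and below that of replicate 1 for 18. Replicate 1 was highest and replicate 3 lowest for 16 of these 28, against 43.5% of the 276 genes on the array called lower in both. The 5 lowest on replicate 3 were the growth factor receptor Flt3 (25.1%), the Fc receptor Fcgr3 (33.7%), Upb1 (38.6%), cathepsin H (Ctsh, 42.1%) and the MHC class II chain H2-Eb1 (44.0%). The 5 above replicate 1 were Thy1 (111%), Ighm (113%), Blnk (123%), Prf1 (126%) and Cox6a2 (170%). Flt3, Upb1 and Blnk were below background on all arrays and Fcgr3 by its TN mean, so their shares are those of weak signals. Flt3 on TN replicate 3 (4.26) was even below Treg replicate 2 (4.33). Genes of 1 list, such as Upb1 and Cox6a2 of the plasmacytoid list, lay at both ends.

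**Figure D2:**
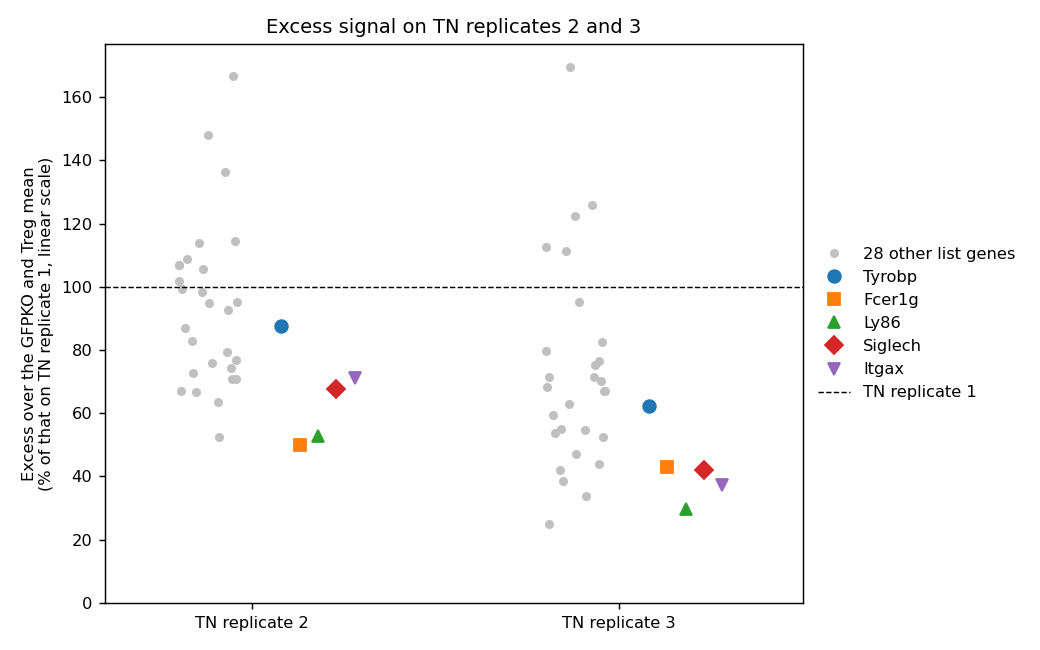
Signal above the mean of the GFPKO and Treg arrays on TN replicates 2 and 3, as a percentage of that on TN replicate 1 (dashed line at 100%), on the linear scale. The 5 coloured genes lie between 29.8% and 62.4% on replicate 3, and the grey points are the 28 other list genes called lower than TN in both comparisons, with a median of 67.7%.

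Genes that work with the 7 were then read in the same fit. In all, 181 genes in lists of partners and cell type markers were measured, and their members were chosen by general knowledge with earlier results of these arrays known. Of these, 21.5% were called lower and 2.76% higher for GFPKO minus TN (3.02% and 2.64% of all genes), and 19.3% lower and 10.5% higher for Treg minus TN (3.42% and 6.54%). For GFPKO minus Treg the shares were 13.3% and 2.21% (6.88% and 2.55%). The median log2 difference of all genes was -0.04, 0.03 and -0.08 in the 3 comparisons. Where a pair of log2 differences stands without names below, it is GFPKO minus TN and then Treg minus TN. Where a gene is below 5.34 in a group, its log2 difference is that of weak signals.

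The partners of Tyrobp and Fcer1g were nearly all too faint to be told from background. Of 21 receptors that signal through these adaptors or the related Hcst (DAP10), counting Hcst itself, 1 (Hcst) was above background in any group by its mean, and only the Fc receptor Fcgr3 (CD16) was called. It was lower in GFPKO (-1.20 ± 0.21, limma adjusted p = 0.0025) and in Treg (-1.34 ± 0.19, limma adjusted p = 0.00018) than in TN. The list's median was -0.12 in GFPKO and -0.07 in Treg relative to TN. Fcgr3 read 4.24, 4.10 and 3.69 in GFPKO, 4.02, 3.63, 3.90, 3.75 and 4.11 in Treg, and 5.72, 5.13 and 4.80 in TN, where only replicate 1 was above background. Ncr1 (NKp46), the NK cell receptor that pairs with Fcer1g, was at 2.93 ± 0.23 in GFPKO, 3.03 ± 0.28 in Treg and 3.02 ± 0.41 in TN, all below background.

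Of 9 signalling genes downstream of ITAM adaptors, 3 were called lower in GFPKO and 1 in Treg than in TN, none higher. They were the phospholipase Plcg2 (-0.69 for GFPKO), the kinase Fgr (-0.66 for GFPKO) and the adaptor Blnk (-0.54 for GFPKO and -0.62 for Treg). A second Fgr probe set above background gave -0.22 and was not called. The call of Blnk for GFPKO was lost in turn without 7 single arrays (adjusted p up to 0.15), and that of Fgr without GFPKO replicate 2 or TN replicate 3.

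Around Ly86, its receptor Cd180 was lower in Treg than in TN (-0.53 ± 0.14, limma adjusted p = 0.028) with all groups below background, and this call was lost without any 1 of the TN arrays or Treg replicate 5. Ly96 (MD-2), the partner of Toll-like receptor 4, was higher in Treg (1.54 ± 0.20, limma adjusted p = 4.9e-05), and the RNA sensor Tlr7 was higher in GFPKO (1.36) and in Treg (1.38) than in TN. Other Tlr7 probe sets, below background, had the same sign and were not called (0.38 and 0.78, and 0.24 and 0.57). The other genes of the 8 in this list, Tlr13, Tlr9, Tlr2 and Tlr4 among them, were not called against TN, and Cd14 differed by 0.00 and 0.04.

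Among 11 other cystatins and lysosomal cysteine proteases, 3 were called lower in GFPKO and 3 lower and 3 higher in Treg than in TN. Cathepsin H (Ctsh) read 3.97, 4.51 and 4.15 in GFPKO, 4.30, 4.52, 4.43, 4.47 and 4.49 in Treg, and 7.11, 6.88 and 6.13 in TN. It was thus at least 2.58-fold lower in both, with log2 differences of -2.50 ± 0.21 (limma adjusted p = 1.6e-06) and -2.27 ± 0.19 (limma adjusted p = 5.8e-07). Cathepsin L (Ctsl) was lower in GFPKO (-0.99) and in Treg (-1.08), as was legumain (Lgmn, -0.64 and -0.69). The mean of the Ctsl probe sets was not called for GFPKO (-0.47, adjusted p = 0.072), and the call of Lgmn for GFPKO was lost without GFPKO replicate 1 (adjusted p = 0.11) and without several other arrays. The cystatin Cst7, made by activated lymphocytes and myeloid cells, was higher in Treg than in TN (2.23) and lower in GFPKO than in Treg (-2.38). The partners of Itgax, the integrin chains Itgal, Itgam and Itgb2, were not called in any comparison by limma, with only Itgal at an unadjusted p under 0.05 (in both comparisons with TN), and Itgb2 read 11.77 in GFPKO, 11.70 in Treg and 11.70 in TN on average. These 3 were named after their values were seen.

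Markers of plasmacytoid dendritic cells, the cells known for Siglech, were lower than TN for 6 of 14 genes in GFPKO and none was higher, with a median of -0.43. In Treg 7 were lower and 2 higher, with a median of -0.54. The surface protein Ly6d was lower in both (log2 differences -1.93 for GFPKO and -1.51 for Treg), as were the inhibitory receptor Lair1 (-1.69 and -1.64), the ETS factor Spib (-1.47 and -1.68) and Smim5 (-0.85 and -1.09). Every TN array was above all others for 7 of the 14. Spib read 3.03, 3.55 and 3.32 in GFPKO, 3.22, 2.93, 2.88, 2.95 and 3.47 in Treg, and 4.70, 5.22 and 4.39 in TN, below background throughout. Tcf4, the factor that defines these cells, was lower in Treg (-0.52 ± 0.12, limma adjusted p = 0.0083, lost without TN replicate 2) but not called in GFPKO (-0.21). Bst2, which T cells also make, differed by 0.01 and -0.01. The mean log2 signal of the list was 5.39 to 5.82 in GFPKO, 5.58 to 5.66 in Treg and 5.94 to 6.16 in TN. The call of Smim5 for GFPKO was lost without TN replicate 1 or 2, and with only genes above background in at least one group 2 were called lower in each comparison.

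Markers of conventional dendritic cells were lower than TN for 4 and higher for 1 of 15 in GFPKO, and lower for 5 and higher for 1 in Treg. Wdfy4, needed for cross-presentation, was lower in GFPKO (-1.89) and in Treg (-1.49), and the amidase Naaa in GFPKO (-1.0). Another Wdfy4 probe set, below background, was not called (-0.05 and -0.02). The enzyme Kmo was lower in Treg (-0.98). Cd83, which activated lymphocytes make too, was higher in both, by 1.50 and 4.10. Of the defining genes, Flt3 was called lower in GFPKO (-0.91 ± 0.18, limma adjusted p = 0.0060) and in Treg (-0.57 ± 0.16, limma adjusted p = 0.035), the second call being lost without TN replicate 1 (adjusted p = 0.23) and without several other arrays. Of the whole list only Cd83 and Naaa were above background in any group. Zbtb46 (0.03 and 0.13) and Xcr1 (-0.05 and 0.01) were not called. The list's mean log2 signal was 3.81 to 4.15 in GFPKO, 4.11 to 4.33 in Treg and 4.25 to 4.41 in TN. Its 5 lower genes for Treg were 3 without TN replicate 1, TN replicate 2, Treg replicate 1 or Treg replicate 3.

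Monocyte and macrophage markers did not share the pattern as a list. For GFPKO minus TN 3 of 20 were lower and 1 higher (median 0.00), and for Treg minus TN 1 was lower and 5 higher (median 0.29). The 1 gene lower in both was Mpeg1 (perforin-2), at 5.06, 5.70 and 5.48 in GFPKO, 5.02, 4.71, 5.19, 4.37 and 4.73 in Treg, and 7.57, 7.41 and 6.99 in TN. Its log2 differences were -1.91 ± 0.22 and -2.52 ± 0.20. The oxidase subunit Cybb was lower in GFPKO (-1.14) but higher in Treg (1.63) than in TN, and in GFPKO the factor Cebpb was lower (-1.0) and the chemokine receptor Ccr2 higher (1.43). For GFPKO the call of Cybb was lost without TN replicate 1, that of Cebpb without TN replicate 2 and that of Ccr2 without TN replicate 3, and a second Cebpb probe set was not called. With the mean of each gene's probe sets, Ccr2 (0.57, adjusted p = 0.15) and Cybb (-0.74, adjusted p = 0.066) were not called for GFPKO either. Csf1r, the receptor that macrophages need, differed by -0.09 and -0.03, and Adgre1 (F4/80) by -0.27 and -0.16. The list's mean log2 signal was 4.50 to 4.91 in GFPKO, 4.81 to 5.11 in Treg and 4.60 to 4.81 in TN.

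Of 18 granulocyte, basophil and mast cell markers none was called against TN by limma, with 1 for GFPKO (Ms4a2) and 0 for Treg at an unadjusted p under 0.05, and all were below background in every group. Their mean log2 signal was 3.01 to 3.28 in GFPKO, 3.03 to 3.37 in Treg and 3.12 to 3.27 in TN. S100a8 differed by -0.24 and -0.12 and S100a9 by 0.22 and 0.24.

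Several MHC class II genes, which antigen-presenting cells use to show peptides to CD4 T cells, read far lower in GFPKO and Treg. For GFPKO minus TN 6 of 9 were lower and none higher (median -0.99), and for Treg minus TN 5 were lower and 1 higher (median -0.89). H2-Aa read 4.19, 6.10 and 5.71 in GFPKO, 6.05, 6.09, 6.22, 6.51 and 6.09 in Treg, and 11.02, 10.54 and 10.13 in TN. The TN mean was 37.3-fold above the background level, and the GFPKO mean of 5.336 ± 1.010 (SD, n = 3) lay just under that level. GFPKO replicates 2 and 3 were above it, so 37.3-fold is not a lower bound for each GFPKO array. In Treg, where the signal was above background, it was 20.7-fold lower than in TN. H2-Eb1 differed by -4.60 and -3.74, H2-Ab1 by -4.48 and -4.18 and Cd74, the invariant chain, by -2.74 and -0.89. Others of the list did not: H2-DMa (0.32 and 0.31) and Ciita (-0.45 and -0.10, below background) were not called. H2-Ob was called lower in GFPKO (-0.65) but not called in Treg (0.28). Other probe sets of H2-Aa and H2-Ab1 were called in the same direction with smaller differences. The call of Cd74 for Treg was lost without TN replicate 1 or 2. The list's mean log2 signal was 5.53 to 6.05 in GFPKO, 6.32 to 6.63 in Treg and 7.55 to 8.07 in TN, highest on TN replicate 1 and lowest on replicate 3 within that group.

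Markers of NK cells, which use Tyrobp and Fcer1g as well, were lower for 7 of 12 and higher for none in GFPKO, and lower for 4 and higher for 1 in Treg, than in TN. Klrd1 (CD94), a chain of NK receptors, read 4.21, 4.36 and 3.31 in GFPKO, 3.21, 3.20, 3.21, 3.16 and 2.99 in Treg, and 9.10, 8.77 and 8.63 in TN, at least 11.2-fold lower in both. Perforin (Prf1) differed by -2.60 and -2.21, though another of its probe sets, below background, was not called (0.00 and -0.29). The chemokine Ccl5 was lower in GFPKO (-4.11) and differed by -0.44 in Treg, which was not called, and granzyme B (Gzmb) was higher in Treg (2.64). Several of these are also made by T cells.

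Of 13 B cell markers 3 were lower and 1 higher in GFPKO and 2 lower and 2 higher in Treg. Ms4a1 (CD20) differed by -1.22 and -0.87 with all groups below background. Cd22 was lower in GFPKO (-1.02), Cd79b was higher in both (1.65 and 3.27), and Bank1 was higher in Treg (1.02). Other probe sets of Ms4a1 and Cd22, below background, were not called. Of 6 plasma cell markers the factor Xbp1 was higher in both (0.60, lost without GFPKO replicate 2, and 0.66) and Mzb1 lower in Treg (-0.79), the last lost without any 1 of the TN arrays. Jchain, the joining chain of antibodies, was not called, but read 2.87, 3.40 and 3.19 in GFPKO, 3.20, 3.43, 3.11, 2.68 and 2.88 in Treg, and 5.05, 4.71 and 2.73 in TN, with TN replicate 3 among the other arrays. It was named after its values were seen.

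The T cell genes were high in all groups, with a mean log2 signal of 10.93 to 11.20 in GFPKO, 10.80 to 10.88 in Treg and 11.08 to 11.17 in TN over 12 genes. In GFPKO 2 were lower than in TN, the receptor chain Cd247 (-0.77) and Thy1 (-0.61). In Treg 4 were lower, led by Themis (-2.18), with Cd28 (-0.63), and 1 was higher. Other probe sets of Cd247 and Cd28 were not called for Treg. With the mean of its probe sets Cd247 was not called for GFPKO (-0.33, adjusted p = 0.14) or Treg (-0.32, adjusted p = 0.067), and the calls of Cd247, Thy1 and Cd28 against TN were each lost without 1 or more single arrays. Cd3e differed by 0.13 and -0.03 and Cd4 by 0.08 and -0.34, neither called. Of the CD8 genes Cd8b1 was lower in GFPKO (-0.62), which was lost without TN replicate 1 or 2 or GFPKO replicate 2. None of 3 gamma-delta and invariant NKT cell markers and none of 6 erythroid and platelet markers was called in any comparison by limma, and 1 of these 9, Alas2 for GFPKO minus Treg, had an unadjusted p under 0.05.

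The list genes higher in Treg than in TN that have not been named were Cd2 (0.41), the cathepsins Ctsb (0.38) and Ctsz (0.65), the factor Irf8 (0.63), the chemokine receptor Ccr9 (1.0) and the class II chain H2-Oa (1.29). All but that of H2-Oa were lost without 1 or more single arrays, and these genes were named after their values were seen. Over all lists, every TN array was above every GFPKO and Treg array for 20.4% of the 181 genes, against 3.5% of all genes. Some genes known for plasmacytoid and conventional dendritic cells, MHC class II and NK cells were thus lower in GFPKO and Treg beside Tyrobp, Fcer1g, Ly86, Siglech and Itgax. Called lower in both were 6 of 14, 3 of 15, 5 of 9 and 4 of 12 genes of these lists, against 1.52% of all genes. Other lists held such genes too, with 3 of 11 cathepsins and cystatins, 2 of 12 T cell and 2 of 13 B cell genes. The monocyte and macrophage list held 1 of 20, the ITAM receptors 1 of 21 and the ITAM signalling genes 1 of 9. Csf1r, which was above background, and Adgre1, Zbtb46, Xcr1, S100a8 and S100a9, which were below it, were not called. Of the other defining dendritic cell genes, Flt3 was called lower in both and Tcf4 in Treg, with both genes below background. Their part in the result was not tested, and RNA of other cells in the TN samples and expression by naive CD4 T cells themselves cannot be told apart from these values.

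**Figure D3:**
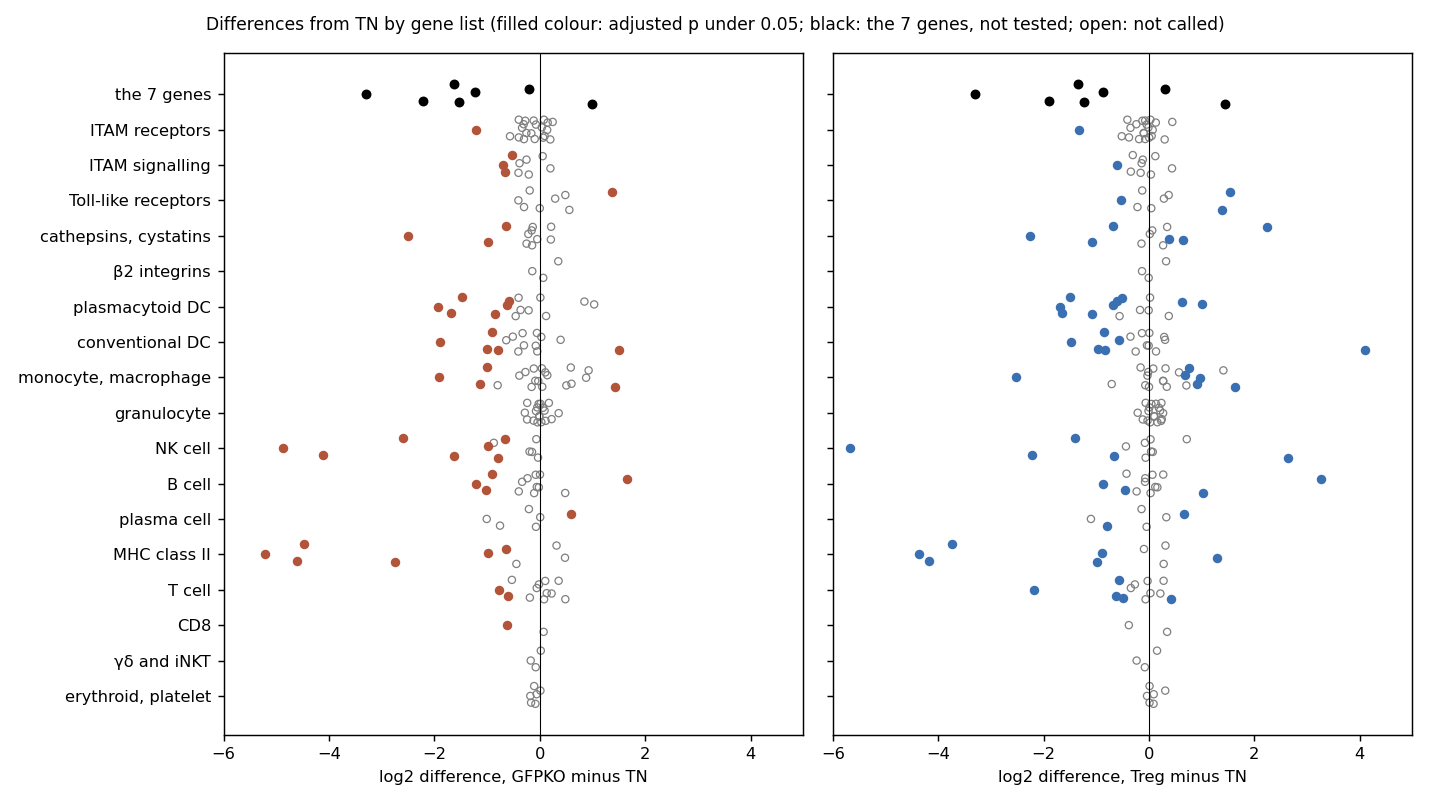
Log2 difference from TN (horizontal axes) of each gene, by list, for GFPKO (left) and Treg (right). Filled coloured points passed an adjusted p of 0.05 in limma, open points did not, and black points are the 7 genes, shown without a test. The MHC class II, NK cell, cathepsin, macrophage, plasmacytoid and conventional dendritic cell lists hold genes far to the left in both panels. Some of them, such as the NK cell and conventional dendritic cell lists, also reach to the right for Treg. The granulocyte list of 18 genes stays near 0.

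Lyz2 was followed apart from the others, with genes chosen after its values were seen. The brightest probe set of Lyz1, the near-identical neighbour of Lyz2, had the closest pattern among genes above background (r = 0.976 over n = 11 arrays). That probe set is of a kind that can pick up related transcripts, so the signals of Lyz1 and Lyz2 are uncertain as separate measurements. The only probe set of Lyz1 not of this kind read 2.48 to 3.05 over the 11 arrays, below background throughout. The brightest read 7.14, 8.26 and 5.71 in GFPKO, 8.02, 6.11, 7.27, 7.77 and 8.44 in Treg, and 6.28, 5.79 and 6.25 in TN, and it was not called. Lyz2 and this probe set were high on GFPKO replicate 2 and Treg replicates 1 and 5 and low on GFPKO replicate 3 and Treg replicate 2.

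The complement genes of tissue macrophages had group levels in the same order, all below background. C1qa was at 4.43 ± 0.50 in GFPKO, 4.51 ± 0.36 in Treg and 3.55 ± 0.19 in TN (SD, n = 3, 5 and 3). For Treg minus TN the log2 difference was 0.96 ± 0.22 for C1qa (limma adjusted p = 0.0098), 0.68 ± 0.16 for C1qb (limma adjusted p = 0.012) and 0.76 ± 0.19 for C1qc (limma adjusted p = 0.017), and each call was lost without TN replicate 2 or 3, and that of C1qc without TN replicate 1 too (adjusted p of 0.053 to 0.082). The iron exporter Slc40a1 of the same cells was higher in Treg by 0.91, with all group means below background. Neither Slc40a1 nor the C1q genes were called for GFPKO minus TN, where C1qa came closest (0.88 ± 0.25, limma adjusted p = 0.053). Other macrophage genes did not have this order. For Treg minus TN, Mpeg1 was lower (-2.52), and Csf1r (-0.03) and Adgre1 (-0.16) were not called. Of the 20 monocyte and macrophage markers, 5 were higher and 1 lower in that comparison.

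**Figure D4:**
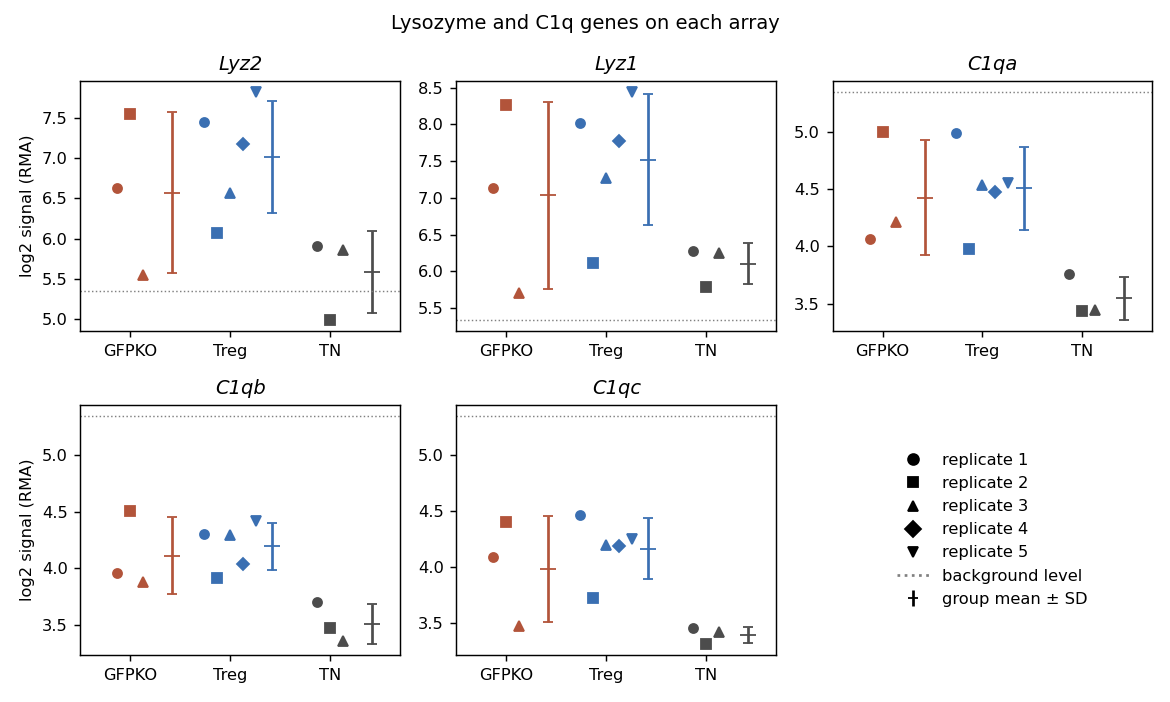
Log2 signal (RMA, vertical axes, each panel on its own scale) of Lyz2, Lyz1 (its brightest probe set, which can pick up related transcripts), C1qa, C1qb and C1qc on each GFPKO, Treg and TN array, with group mean ± SD and the background level of 5.34 as a dotted line. GFPKO replicate 2 is the highest and GFPKO replicate 3 the lowest GFPKO array for Lyz2 and Lyz1, and the C1q genes lie below background on all arrays.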

How the data were processed

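Trizol-extracted RNA was biotinylated for Affymetrix arrays, per the labels. The deposited values are log2 signals of 45101 probe sets, made by the authors with RMA per the submitters' processing notes, in a version not stated; the log2 scale was read from the values (1.54 to 14.65, array medians 4.07 to 4.16). They were used as deposited. Left out were 64 control probe sets, 932 with several gene symbols and 9211 not in the platform's gene table, which include most of the controls. The 34945 with 1 symbol gave 18193 genes, each by its brightest probe set. Of these probe sets 34741 matched RefSeq by Entrez ID, and RefSeq (GRCm38.p6) gave the coordinates and sequences. No arrays held identical values.

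The 11 arrays entered one limma fit (3.58.1, R 4.3.3) with a mean for each group; the fit was tested on simulated data. P-values are two-sided and adjusted by Benjamini-Hochberg over all genes within a comparison, with a threshold of 0.05. The 7 genes, the lists and the tests were chosen with earlier results of these data known. Genes named from a list were the 4 with the largest called difference from TN, plus defining markers, of which Klrb1c was not used here. Alternatives changed the normalization, the probe set, the filter on dim genes, the arrays fitted, the replicate block, the moderation, the array weights and each array in turn.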

Additional observations from a re-analysis of the deposited data

Results flagged for a closer look

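Of 62 genes named in the report and measured on the 5 Treg arrays, 2 had 1 Treg array that stood apart from the others by Dixon's test. Klrd1 read 2.99 on Treg replicate 5, against 3.16 to 3.21 on the other Treg arrays. S100a9 read 2.68 on Treg replicate 1, against 2.93 to 2.97 on the others. Chance sets apart about 1 in 20 groups in this test, and both genes were far below the background level of 5.34 in Treg.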

How the results depend on the processing

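The number of arrays and signals near or below background limit these results. Of 369 recomputed differences of the 7 genes, 358 kept their size or call and none turned its sign while called. Part of the differences from TN could not move, so this count overstates how firmly they held. Leaving out an array of the group not compared, fitting only the groups compared, or averaging the probe sets of a gene with 1 probe set leaves such a difference as it was. With array weights, GFPKO minus TN was 1.92 for Lyz2 (0.99 as reported), and GFPKO minus Treg was called for Fcer1g (-0.57), Ly86 (-0.46), Siglech (-0.42), Itgax (-0.46) and Cst3 (-0.29). The -0.51 of Cst3 was also called with the mean of probe sets (adjusted p = 0.046), with only genes above background (adjusted p = 0.041) and with trend and robust moderation (adjusted p = 0.040), and ranged from -0.63 to -0.30 over arrays left out, called without GFPKO replicate 2 or 3. Of the 90 called differences of 60 other named genes, 66 were called whichever array was left out and 63 under every alternative. Over arrays left out, genes called lower for GFPKO minus TN were 271 (without TN replicate 1; 312 without TN replicate 2, 362 without GFPKO replicate 2) to 1224 (without GFPKO replicate 3), for Treg minus TN 388 (without TN replicate 2; 411 without TN replicate 1) to 934, and for GFPKO minus Treg 782 (without GFPKO replicate 1) to 2414 (without GFPKO replicate 3), with 282 (without GFPKO replicate 2) to 1007 (without GFPKO replicate 3) higher there. List genes called higher were 4 to 12 for GFPKO minus TN (9 without GFPKO replicate 1, 12 without GFPKO replicate 3), 11 to 23 for Treg minus TN (11 and 12 without TN replicates 3 and 2) and 2 to 7 for GFPKO minus Treg (without GFPKO replicates 2 and 3). A fit of only the groups compared called 251 genes lower and 311 higher for GFPKO minus TN and 1010 lower for Treg minus TN. Array weights called 2933 lower and 2118 higher for GFPKO minus TN (62 and 22 list genes), 1386 and 1837 for Treg minus TN (30 list genes higher) and 4424 and 2332 for GFPKO minus Treg (52 and 20 list genes). With only genes above background, 22 list genes were lower for Treg minus TN. Whether replicate numbers pair the samples was not settled. Deviations of same-numbered arrays correlated at 0.16 (GFPKO and TN), 0.21 (Treg and TN) and 0.51 (GFPKO and Treg) for replicate 1. For replicates 2 and 3 they correlated between -0.22 and 0.07. With the replicate number as a block 752 genes were lower and 297 higher for GFPKO minus Treg. The cause of these shifts was not tested.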
